A study of Mus musculus with 8 samples.

Results

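The genes described here are Adam12 and 9 relatives that also encode membrane ADAM proteins (Adam8, Adam9, Adam10, Adam15, Adam17, Adam19, Adam22, Adam23 and Adam33). They were chosen by gene name and are 10 of the 53801 genes in the table, 29043 of which had a read in any library. Stromal cells positive for PDGFRα and PDPN were sorted from MO5 tumors, which are B16 mouse melanomas made to express ovalbumin, grown under the skin of ADAM12-GFP mice. These young adult C57Bl/6 mice carry a bacterial artificial chromosome in which the Adam12 promoter drives Cre and, through an internal ribosome entry site, GFP. RNA was sequenced from 4 GFP+ (ADAM12+) and 4 GFP- (ADAM12–) libraries of the same gate, and the transgene was therefore present in the mice of both groups. Tumor, host strain and gate were shared as well, so that the labels set the groups apart by GFP signal alone. The question asked was whether sorting on the Adam12 reporter separates Adam12 from its relatives.

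ADAM proteins are anchored in the cell membrane and carry an outer metalloproteinase domain and a disintegrin domain. Active members cut other membrane proteins close to the cell surface, which releases growth factors, cytokines and receptor ectodomains in a process called shedding. ADAM10 and ADAM17 are the main sheddases of most cells, and ADAM17 was first known as the enzyme that frees TNF. ADAM12, ADAM19 and ADAM9 were described together as meltrins, and ADAM12 marks activated mesenchymal cells in injured and tumor-bearing tissue. In the active members a zinc ion is held by 3 histidines beside a catalytic glutamate, and this set of residues is not complete in ADAM22 and ADAM23, which act as adhesion proteins and as receptors of the secreted LGI proteins.

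The coding bases of this zinc site are shown for the members on which the comparison turns, because they separate the proteases from the inactive members. Each is written 5′ to 3′ on the coding strand from GENCODE transcripts on GRCm38, with the codons at the positions of the 3 histidines and the glutamate in capitals.
Adam12: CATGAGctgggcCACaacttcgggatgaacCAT
Adam19: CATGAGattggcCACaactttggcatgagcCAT
Adam10: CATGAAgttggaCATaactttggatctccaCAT
Adam17: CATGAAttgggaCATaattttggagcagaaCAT
Adam22: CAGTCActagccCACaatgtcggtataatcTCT
Adam23: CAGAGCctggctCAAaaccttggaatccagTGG
The Adam12 site lies on the minus strand at chr7:133961158-133961190, within 1 exon. Adam19 shares 28 of the 33 bases with it, Adam10 shares 20 and Adam17 shares 21. All 8 members other than Adam22 and Adam23 keep the 3 histidine codons and the glutamate codon. At the aligned position Adam22 (chr5:8143064-8143096, minus strand) keeps 1 of the histidine codons and not the glutamate codon, and Adam23 (chr1:63547763-63547795, plus strand) keeps none of them. The sorted gene and the member with the largest difference between the groups (below) thus stand on opposite sides of this division.

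Total counts ran from 883144 to 17535099 in GFP- libraries and from 8776925 to 31666734 in GFP+ libraries, and GFP- replicate 3 was the library of 883144. Reads of the 10 members came to 970 in that library and to between 7465 and 43645 in the others. The study's statistics section takes n as mice unless it says otherwise, so the libraries of a group are read here as separate mice, but the labels name no animal and do not say whether a GFP+ and a GFP- library of the same number share one. Fibroblast markers were abundant in every library, with 7 of 10 called higher in GFP+ libraries and none lower (Pdgfra, one of the sorting markers, had a log2 fold change of 1.32 ± 0.17 (SE)). All 10 pigment cell (melanocyte) markers were called lower in GFP+ libraries, in which their summed normalized counts ran from 5784 to 14604, against 28215 to 84604 in GFP- libraries (53209 to 84604 without GFP- replicate 3). Of 9 leukocyte markers tested, 0 were called by DESeq2 or edgeR and 0 had an unadjusted p under 0.05, and their sums overlapped (2639 to 9581 in GFP-, 1851 to 7603 in GFP+; Itgam was listed at 0). Endothelial sums overlapped as well, at 1490 to 2879 and 1892 to 3549, but 1 of the 5 endothelial markers tested, Vwf, was called lower in GFP+ libraries by both tools (log2 fold change -3.30 ± 0.66 (SE); DESeq2 adjusted p = 3.77e-05, edgeR 0.0266). Pecam1 was not called by DESeq2 in all libraries (log2 fold change 0.42 ± 0.54 (SE)), and without GFP- replicate 3 it was called higher (1.31, adjusted p = 0.0044). Of 5 pericyte markers tested, 1 was called higher by DESeq2 and 0 by edgeR, and each tool gave 1 an unadjusted p under 0.05. The marker called, Abcc9, had a log2 fold change of 1.15 ± 0.41 (SE) and overlapping groups (DESeq2 adjusted p = 0.0493, edgeR 0.0975). The gate, per the study's methods, leaves out cells positive for CD31 or CD45, and the part of endothelial cells or pericytes in the values of the members was not tested.

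Of the 10 members, 3 passed the DESeq2 test and all of these were higher in GFP+ cells: Adam23, Adam12 and Adam19. Among all 15283 genes tested by DESeq2, 9.42% were called at an adjusted p under 0.05, 4.66% higher and 4.76% lower in GFP+ cells. By the edgeR quasi-likelihood test, which was run on the same counts, Adam23 alone of the 10 members was called. That test called 5.11% of all genes it tested, 2.83% higher and 2.28% lower. Groups did not overlap for Adam12, Adam19 and Adam23, as for 12.3% of the genes tested by DESeq2. All 10 members received an adjusted p from both tools, and at an unadjusted p under 0.05 both tools marked the same 5, which were these 3 with Adam9 and Adam10, and 21% of all genes tested by DESeq2 had such a p. Because cells were pooled before sequencing, fewer expressing cells and less RNA per cell cannot be told apart in any value that follows.

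**Figure D1:**
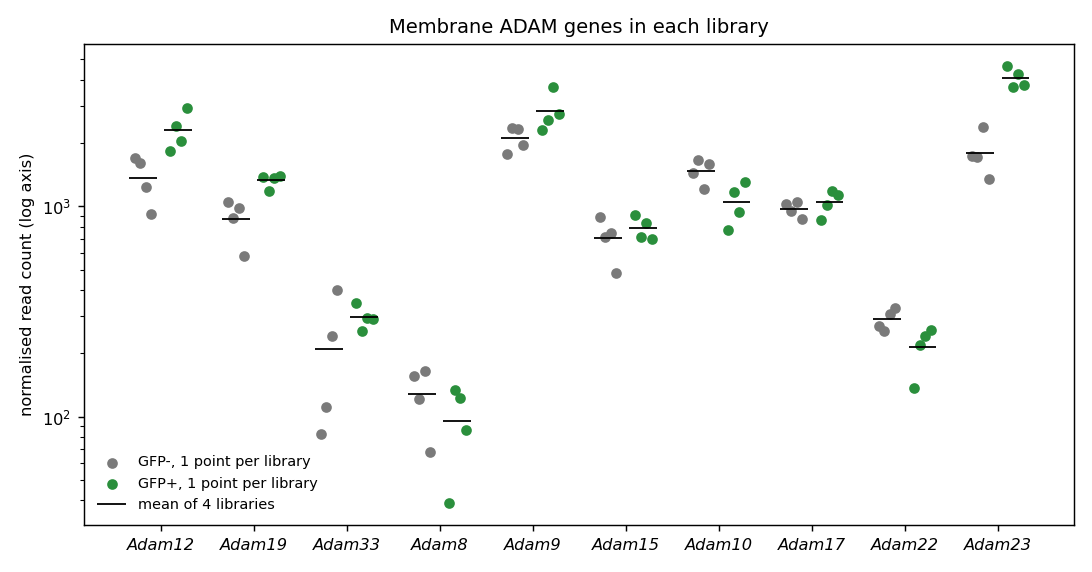
Normalized read counts (raw count divided by the DESeq2 size factor, log axis) of the 10 membrane ADAM genes, with 1 point per library, GFP- in grey, GFP+ in green and a line at the mean of 4 libraries. The GFP+ points lie above all GFP- points for Adam12, Adam19 and Adam23 and overlap them for the other 7 genes.

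Adam12, the gene whose promoter drives the reporter, was read in both groups. Its normalized read counts were 1693, 1605, 1231 and 919.7 in GFP- replicates 1 to 4 and 1833, 2396, 2039 and 2938 in GFP+ replicates 1 to 4. The groups did not overlap, but the highest GFP- library stood close to the lowest GFP+ library. The difference was 1.69-fold (log2 fold change 0.75 ± 0.24 (SE), 95% interval 0.28 to 1.23) with a DESeq2 adjusted p of 0.0266 and an edgeR adjusted p of 0.0643. The call was lost in 4 of the 8 DESeq2 fits that omit a library: the adjusted p was 0.0689 without GFP- replicate 3, 0.0852 without GFP- replicate 4, 0.0767 without GFP+ replicate 2 and 0.117 without GFP+ replicate 4. By size of the log2 fold change, 511 of the genes called higher preceded it. Reads from Adam12 exons that the transgene may carry cannot be told apart from those of the native gene in this table.

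Adam19 and Adam33 are the members closest to ADAM12 in the family's usual grouping, and ADAM19 is a protease of heart and nerve development that can release neuregulin. Adam19 counts were 1051, 879.3, 977.9 and 581.5 in GFP- libraries and 1383, 1186, 1367 and 1395 in GFP+ libraries. All GFP+ libraries lay above all GFP- libraries, and the GFP- library lowest in Adam19 was the one lowest in Adam12 (replicate 4). Adam19 was 1.54-fold higher (log2 fold change 0.62 ± 0.21 (SE); DESeq2 adjusted p = 0.0415, edgeR 0.0843). It stayed called in 2 of the 8 DESeq2 fits without 1 library, those without GFP- replicate 1 or GFP- replicate 3, and in the other 6 the adjusted p ran from 0.0611 to 0.134. Adam33, a gene known from airway smooth muscle and fibroblasts, had counts of 82.8, 111.1, 241.7 and 401.8 in GFP- libraries against 347.2, 255.6, 293.5 and 291.9 in GFP+ libraries. The GFP- libraries thus spread more widely than the GFP+ libraries and reached both below and above them. Its log2 fold change was 0.51 ± 0.45 (SE; DESeq2 adjusted p = 0.58). A fit that omits GFP- replicate 4 gave 1.19 and an adjusted p of 0.0339.

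Neither of the main sheddases passed the test. Adam10 counts were 1445, 1658, 1209 and 1597 in GFP- libraries and 772.1, 1176, 941.9 and 1303 in GFP+ libraries. GFP+ values were mostly the lower ones, and the ranges met only through the highest GFP+ library, replicate 4. The log2 fold change was -0.50 ± 0.21 (SE; DESeq2 adjusted p = 0.124). A fit that omits GFP+ replicate 4 gave -0.62 and an adjusted p of 0.0495. With the replicate number as a block, Adam10 was called lower by DESeq2 (-0.51, adjusted p = 0.0482) and not called by edgeR (-0.50, adjusted p = 0.1475). Adam17 had the narrowest interval of the 10 members. Its counts were 1024, 945.2, 1044 and 869.8 in GFP- libraries and 859.6, 1016, 1183 and 1128 in GFP+ libraries, with the lowest value of all in a GFP+ library. The log2 fold change of Adam17 was 0.12 ± 0.17 (SE, 95% interval -0.21 to 0.45). The value measured for Adam12 (0.75) lay outside this interval, but the 95% interval of Adam12 (0.28 to 1.23) overlapped it. Adam17 overlaps Iah1 on the opposite strand, and the counting used the strand of the reads. Opposite-strand genes with reads also overlap Adam8, Adam15 and Adam19. Gm16201, opposite Adam8, had 440 reads over all libraries against 1199 of Adam8.

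Of the other members with a full zinc site, none passed either test. Adam9, the meltrin found in most tissues, had counts of 1781, 2351, 2340 and 1946 in GFP- libraries and 2305, 2567, 3701 and 2761 in GFP+ libraries. Most GFP+ values were above the GFP- values, but GFP+ replicate 1 fell within the GFP- range. The log2 fold change of Adam9 was 0.43 ± 0.20 (SE; DESeq2 adjusted p = 0.166). Adam15, which is prominent in endothelial cells, had a log2 fold change of 0.16 ± 0.23 (SE; counts 482.2 to 890 in GFP- and 702.9 to 905.4 in GFP+ libraries). Adam8, a protease of leukocytes, was the member with the fewest reads, at 68.3 to 164.8 in GFP- and 38.9 to 134.7 in GFP+ libraries, and its log2 fold change of -0.37 ± 0.46 (SE) had the widest interval (-1.27 to 0.54).

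Of the members without the full zinc site, Adam23 passed both tests and Adam22 neither. ADAM23 is best known as an adhesion protein of neurons, and its transcript showed the largest difference of the 10. Adam23 counts were 1734, 1723, 2395 and 1349 in GFP- libraries and 4652, 3687, 4248 and 3777 in GFP+ libraries. The gap between the groups was wide, since the lowest GFP+ library had 3687 and the highest GFP- library 2395. The difference was 2.30-fold (log2 fold change 1.20 ± 0.20 (SE), 95% interval 0.82 to 1.59), with a DESeq2 adjusted p of 1.319e-07 and an edgeR adjusted p of 0.00207. Adam23 was called in all 8 DESeq2 fits without 1 library, with 2.25e-05 as the largest adjusted p. By size of the log2 fold change, 290 genes called higher preceded Adam23. Adam22, the other LGI receptor, had counts of 270.0, 255.1, 307.6 and 329.3 in GFP- libraries and 137.5, 218.4, 242.8 and 259.0 in GFP+ libraries. Only GFP+ replicate 4 reached the GFP- range, and the log2 fold change was -0.42 ± 0.27 (SE; DESeq2 adjusted p = 0.379).

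**Figure D2:**
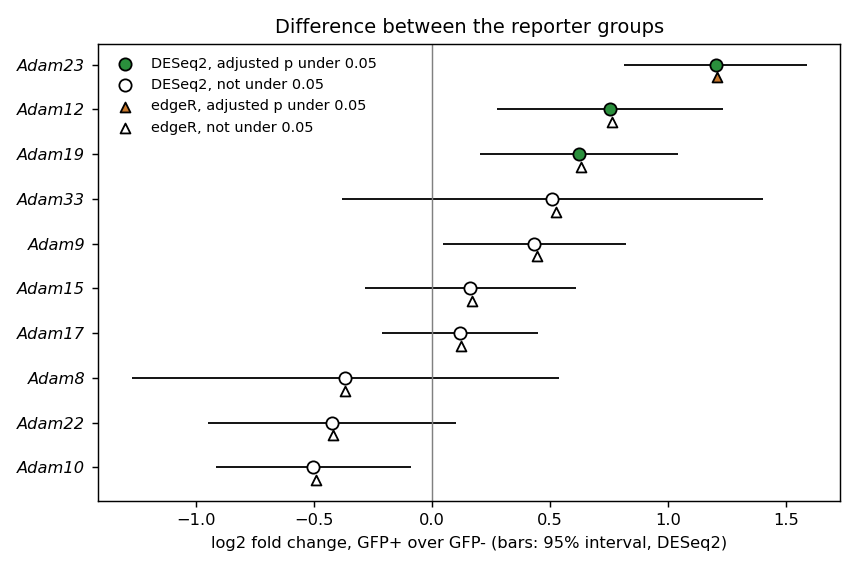
Log2 fold change of each member, GFP+ over GFP-, from DESeq2 (circles, with 95% intervals) and edgeR (triangles); filled symbols have an adjusted p under 0.05. Adam23 at 1.20 has filled symbols from both tools, Adam12 and Adam19 from DESeq2, and the 95% intervals of Adam9 and Adam10, which are not adjusted for the number of genes, lie on opposite sides of 0.

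Melanocyte transcripts moved with the groups and are therefore set beside the members. A score for them, the mean of log2(normalized count + 1) over the 10 markers, ran from 10.97 to 12.53 in GFP- and from 7.76 to 9.96 in GFP+ libraries. Within the GFP- group the highest score (12.53, replicate 4) stood in the library with the lowest counts of Adam8, Adam12, Adam15, Adam17, Adam19 and Adam23 and the highest of Adam22 and Adam33. In the GFP+ group the highest score (9.96, also replicate 4) stood in the library with the highest counts of Adam12, Adam19, Adam10 and Adam22 and the lowest of Adam15. With the score as a covariate, a fit chosen after seeing the data in which the score itself separates the groups, no member was called by DESeq2 (1, Adam12, had an unadjusted p under 0.05), where 0.396% of all genes were called, and the log2 fold change was 1.30 for Adam12, 0.47 for Adam23, 0.27 for Adam19 and 0.44 for Adam10, which reversed its direction. The part of melanocyte RNA in these differences was not tested.

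To ask directly whether Adam12 was separated from its relatives, the log2 ratio of Adam12 reads to the reads of each relative was taken within each library, which needs no scaling between libraries. The ratio to Adam10 was 0.23, -0.05, 0.03 and -0.80 in GFP- libraries and 1.25, 1.03, 1.11 and 1.17 in GFP+ libraries. Adam12 thus had about as many reads as Adam10 in most GFP- libraries and more in every GFP+ library, a shift of 1.29 or 2.44-fold. The groups also did not overlap for the ratios to Adam8 (a shift of 1.26), Adam22 (1.25) and Adam17 (0.67). For these 4 relatives the two-sided exact permutation p was 0.0286, the smallest that 4 against 4 libraries allow, and it came to 0.0643 after adjustment over the 9 relatives. The ratio of Adam12 to all other genes tested by DESeq2 was higher in GFP+ libraries with no overlap for 23.9% and lower with no overlap for 0.281%. A ratio without overlap is therefore not particular to these 4 relatives. None of the 9 ratios passed the adjusted threshold of 0.05, which in this design would need most of them to reach the smallest p.

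For the other 5 relatives the groups overlapped. The ratio to Adam19 was 0.69, 0.87, 0.33 and 0.66 in GFP- libraries and 0.41, 1.01, 0.58 and 1.08 in GFP+ libraries, a difference of 0.13 (exact permutation p = 0.543, adjusted 0.611). Groups overlapped broadly here, and both genes had been called higher in GFP+ cells by DESeq2. For Adam9 the difference was 0.36 (exact permutation p = 0.286, adjusted 0.367), for Adam15 it was 0.59 (exact permutation p = 0.0571, adjusted 0.103), and for Adam33 it was 0.01 (exact permutation p = 1). Toward Adam23 the ratio moved the other way, from -0.41 ± 0.43 to -0.85 ± 0.44 (SD, n = 4 each; exact permutation p = 0.229, adjusted 0.343). Adam23 gained more than Adam12 in the means, a difference within the spread of the libraries.

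**Figure D3:**
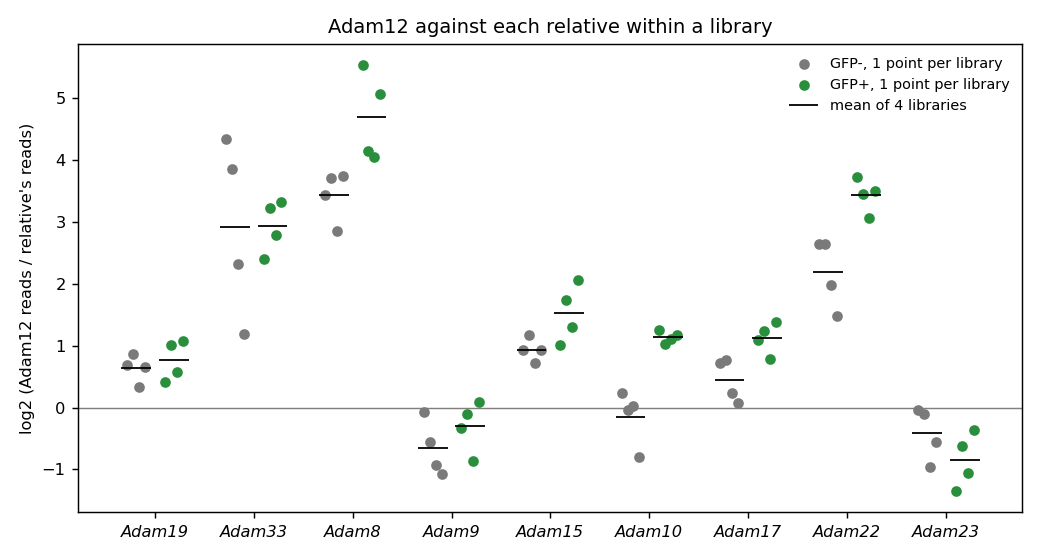
Log2 ratio of Adam12 reads to the reads of each relative (pseudocount 0.5 on both), with 1 point per library, GFP- in grey, GFP+ in green and a line at the mean of 4 libraries; 0 marks equal reads. GFP+ points lie above all GFP- points for Adam8, Adam10, Adam17 and Adam22, and the groups overlap for the other 5 relatives.

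The makeup of the members' reads was compared next. Adam12 took 16.7%, 15.5%, 11.6% and 10.8% of the reads of the 10 members in GFP- libraries and 13.9%, 18.0%, 13.6% and 20.1% in GFP+ libraries. These values overlapped, and the means of 13.6% ± 2.92 and 16.4% ± 3.17 (SD, n = 4) had an exact permutation p of 0.286. The difference of 2.74 percentage points was 1.51 without GFP+ replicate 4 and 1.79 without GFP- replicate 4. Adam23 took 18.0% ± 3.03 in GFP- and 29.2% ± 4.09 in GFP+ libraries with no overlap, and Adam10 took 15.1% ± 3.09 and 7.46% ± 1.62, also with no overlap. Shares of Adam17 (9.80% against 7.43%) and Adam22 (2.97% against 1.52%) did not overlap either. By normalized counts the groups overlapped for Adam10, Adam17 and Adam22. Each of these 4 shares had an exact permutation p of 0.0286, the smallest that 4 against 4 libraries allow, adjusted to 0.0715 over the 10 members. A share of member reads is defined for the members only, so no value over all genes stands beside these 4. By normalized counts, 12.3% of the genes tested by DESeq2 did not overlap. Shares add up to a fixed total, so a larger share of one gene lowers the others.

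Levels were compared between genes per kilobase of exon, counting every annotated exon of a gene. This length was 4115 bases for Adam9, 10573 for Adam12 and 17907 for Adam23. Which of these exons were expressed was not tested, and the order depends on it. In GFP- libraries the order was led by Adam9 with 511.5 ± 69.6 (SD, n = 4) normalized reads per kilobase and Adam10 with 300.7 ± 40.8, each separate from the next in every library. Adam17, Adam12, Adam19, Adam15 and Adam23 followed between 135.7 and 100.5, and neighbors in this order overlapped. Adam33, Adam8 and Adam22 were lowest, at 38.8, 27.5 and 20.3, and overlapped in turn. In GFP+ libraries Adam9 again led with 688.6 ± 147.6. Next came Adam23 at 228.5 ± 25.0, Adam12 at 217.7 ± 45.8, Adam10 at 213.4 ± 48.3 and Adam19 at 187.3 ± 13.8, neighbors of which overlapped in their libraries. The low end was unchanged in order, with Adam33 at 55.1, Adam8 at 20.7 and Adam22 at 14.9. Adam12 was therefore not the most abundant member in the cells sorted for its reporter. Of the 24 other ADAM family genes in the table, 15 had a read in any library and 3 were tested (Adam5, Adam30 and Adam32), none of them called by DESeq2 or edgeR or with an unadjusted p under 0.05, and 9, mainly genes of sperm, were listed at 0.

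Genes that act with these proteases were taken from lists by role, and the background for each list is the median log2 fold change of all tested genes (-0.01) and the share of them called by DESeq2, 4.66% higher and 4.76% lower. With the melanocyte score as a covariate, no gene of these 6 lists was called by DESeq2, where 0.396% of all genes were, so that nothing is read from that count. Each count below stands beside the fall of all 10 melanocyte markers and the rise of 7 of 10 fibroblast markers, whose part in the counts was not tested. Of 5 metalloproteinase inhibitors, 4 were tested, 2 rose and none fell by DESeq2 (median 0.59; 1 rose by edgeR), beside 4.66% and 4.76% of all genes, and Timp4 was listed at 0. Timp3, the matrix-bound inhibitor of ADAM17, ADAM10 and ADAM12, had counts of 6333 to 9550 in GFP- and 10617 to 20108 in GFP+ libraries and rose with a log2 fold change of 0.97 ± 0.23 (SE, DESeq2 adjusted p = 0.000958). Timp2, which acts mainly on matrix metalloproteinases, had counts of 13042 to 14108 and 15424 to 23454 (log2 fold change 0.52 ± 0.16 (SE); DESeq2 adjusted p = 0.018, edgeR 0.0635). Reck, a membrane-anchored inhibitor, had a log2 fold change of 0.67 ± 0.30 (SE, DESeq2 adjusted p = 0.163), and Timp1 had 0.22 ± 0.25 (SE). Timp3, Timp2 and Adam12 were thus all higher in GFP+ cells by DESeq2.

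Among 13 genes for the trafficking and maturation of ADAM10 and ADAM17, all tested, 1 rose and 1 fell (median 0.10), counts close to the shares of 4.66% and 4.76% in all genes. Pcsk5, a proprotein convertase of the family that removes inhibitory prodomains, rose from 970.2 to 1681 in GFP- libraries to 2081 to 3491 in GFP+ libraries (log2 fold change 0.95 ± 0.23 (SE), DESeq2 adjusted p = 0.00111). Furin, the convertase best known for this step, had a log2 fold change of 0.38 ± 0.29 (SE, DESeq2 adjusted p = 0.499). Tspan10, a tetraspanin of the group that carries ADAM10 to the surface and one also expressed in pigment cells, fell by 2.90 on the log2 scale (DESeq2 adjusted p = 4.10e-11; 285.7 to 839.9 in GFP-, 53.0 to 134.2 in GFP+). Melanocyte markers had a median log2 fold change of -3.07, and their part in the fall of Tspan10 was not tested. Tspan5, the most abundant of these tetraspanins here, had 0.10 ± 0.25 (SE), Pcsk6 had -0.45 ± 0.21 (SE) and Rhbdf1, which escorts ADAM17, had 0.48 ± 0.29 (SE), none of which passed.

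The ErbB system holds the best-known growth factors that ADAM proteases release, HB-EGF among them as a substrate of ADAM12. Of 10 genes tested, 1 rose and 1 fell (median 0.49), beside 4.66% and 4.76% of all genes. Egfr, the receptor of most of these ligands, rose from 4028 to 7636 in GFP- libraries to 10117 to 15075 in GFP+ libraries (log2 fold change 1.10 ± 0.23 (SE); DESeq2 adjusted p = 6.54e-05, edgeR 0.00706). Erbb3, a neuregulin receptor of the neural crest lineage, fell by 2.79 on the log2 scale (DESeq2 adjusted p = 3.51e-05). Its counts of 186.8 to 522.3 in GFP- and 9.72 to 104.0 in GFP+ libraries moved with the melanocyte markers and with the Schwann cell markers, 3 of which fell by DESeq2 and 1 by edgeR (sums 615.3 to 1784 in GFP-, or 975.3 to 1784 without replicate 3, and 236.1 to 487.5 in GFP+), and the part of those cells was not tested. Of 6 ligands tested by DESeq2 none passed, and 1, Ereg, had an unadjusted p under 0.05. Hbegf had a log2 fold change of 0.85 ± 0.46 (SE), Ereg -1.04 ± 0.37 (SE, DESeq2 adjusted p = 0.0555) and Nrg1 0.57 ± 0.40 (SE), and Erbb2 had 0.10 ± 0.26 (SE).

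Other membrane proteins known to be shed formed the longest list, with 10 higher and 1 lower of 30 tested by DESeq2 (median 0.48), and 8 higher and 1 lower of 28 tested by edgeR. In all genes 4.66% were higher and 4.76% lower by DESeq2, and 2.83% and 2.28% by edgeR. Ngfr, the low-affinity neurotrophin receptor, had the largest difference, from 273.1 to 1318 in GFP- libraries to 1542 to 6281 in GFP+ libraries (log2 fold change 2.34 ± 0.45 (SE), DESeq2 adjusted p = 1.50e-05). Cxcl16, a membrane chemokine cut by ADAM10 and ADAM17, rose from 112.9 to 230.7 to 517.3 to 1011 (log2 fold change 2.21 ± 0.32 (SE), DESeq2 adjusted p = 1.03e-09). Csf1, the macrophage growth factor, rose with a log2 fold change of 1.28 ± 0.27 (SE, DESeq2 adjusted p = 7.82e-05). Mertk, a receptor for dying cells that ADAM17 cuts, was the member of this list that fell (log2 fold change -1.72 ± 0.45 (SE), DESeq2 adjusted p = 0.00298). Axl, its relative, did not pass at 0.23 ± 0.17 (SE), nor did Cd44 at -0.06 ± 0.21 (SE), Notch2, a receptor that ADAM10 cuts, at -0.17 ± 0.16 (SE) or the decoy receptor Il1r2 at 0.65 ± 0.27 (SE). Prnp was listed at 0 in every library and was not tested. These are transcripts of substrates, and no cut protein was measured.

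**Figure D4:**
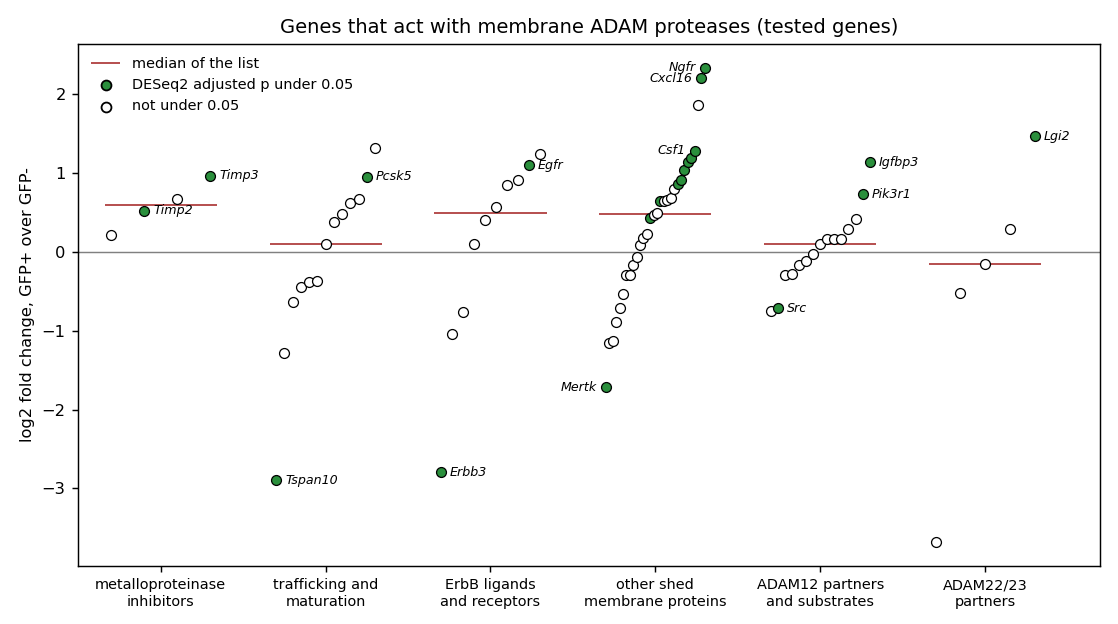
Log2 fold change, GFP+ over GFP-, of the tested genes of 6 lists, 1 point per gene in ascending order within a list, filled where the DESeq2 adjusted p is under 0.05, with a red line at the list's median. Most filled points of the shed proteins lie above 0, up to Ngfr at 2.34, and Tspan10 at -2.90 and Erbb3 at -2.79 lie lowest among the filled points.

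Of 15 partners of ADAM12 tested, from inside and outside the cell, 2 rose and 1 fell by DESeq2 (median 0.10), beside 4.66% and 4.76% of all genes. Igfbp3, an IGF-binding protein that ADAM12 can cut, rose from 564.4 to 933.9 in GFP- libraries to 1283 to 2007 in GFP+ libraries (log2 fold change 1.14 ± 0.22 (SE); DESeq2 adjusted p = 2.46e-05, edgeR 0.0052). Igfbp5, the other such protein, had -0.16 ± 0.14 (SE) at much higher counts (11258 to 15835 over all libraries). Pik3r1, the PI3-kinase subunit that binds the tail of ADAM12, rose by 0.73 ± 0.18 (SE, DESeq2 adjusted p = 0.000942). Src, a kinase that binds the same tail, fell by DESeq2 (log2 fold change -0.71 ± 0.20 (SE), adjusted p = 0.0056) but did not pass by edgeR (adjusted p = 0.0745). Tgfbr2, the TGF-β receptor that ADAM12 associates with, had 0.29 ± 0.22 (SE), Itgb1 had 0.16 ± 0.19 (SE) and Rack1 had -0.03 ± 0.16 (SE).

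For Adam22 and Adam23 the partners are the LGI proteins. Of 5 genes tested, 1 rose and none fell (median -0.15), beside 4.66% and 4.76% of all genes. Lgi2 counts ran from 481.6 to 1088 in GFP- and from 1640 to 2426 in GFP+ libraries, a log2 fold change of 1.47 ± 0.25 (SE; DESeq2 adjusted p = 5.94e-07, edgeR 0.00261). Lgi2 and Adam23 were thus both called higher by both tools, and Adam22, the other LGI receptor gene, was called by neither. Lgi4 had a log2 fold change of -0.15 ± 0.44 (SE), Lgi3 -0.52 ± 0.74 (SE), Lgi1 -3.68 ± 2.26 (SE) on few reads (0 to 157.4 normalized counts over all libraries), and Dlg4, a synaptic scaffold of this complex, 0.29 ± 0.20 (SE).

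The genes whose pattern over the 8 libraries was most like that of Adam12 were not its relatives. Pearson's r of log2(normalized count + 1) over the 8 libraries was ranked among 8811 genes with a mean of at least 100, as a description across points that share library depth and fall into the 2 sorted groups. Fbln7, a secreted adhesion protein of the matrix, and Hspa5, a chaperone of the endoplasmic reticulum, led with r of 0.98 each. Adamts12, a secreted metalloproteinase, followed with 0.96, then Fabp4, a fatty acid-binding protein, with 0.95 and Klf7, a transcription factor, with 0.94. Hspa5 and Klf7 were not called by DESeq2 (log2 fold change 0.21 and 0.30), while Fbln7, Adamts12 and Fabp4 were higher in GFP+ cells (1.65, 0.98 and 2.10). Of the relatives Adam19 came first at rank 62 (r = 0.86), then Adam23 at rank 322 (r = 0.74), and Adam10 (r = -0.36) and Adam22 (r = -0.46) were last.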

How the data were processed

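RNA was sequenced from 4 GFP+ and 4 GFP- libraries, grouped and numbered by their labels, and prepared from total RNA with a stranded low-input kit. Per the labels and the study's methods, the authors trimmed reads with cutadapt 3.4, mapped them to GRCm38 with STAR 2.7.3a and counted them per Ensembl gene and strand with featureCounts 2.0.1. Counting by gene can lose reads shared by close copies. The authors deposited raw counts per gene and library, replicates kept apart, and a normalized score (count over size factor, rounded), used here only to check the size factors. The table's columns of fold changes and p-values were not used, and 0 per-sample columns were left over.

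Counts of 29043 genes were fitted with DESeq2 1.42.0 (R 4.3.3), the tool the study used, with group as the only term, Wald tests, independent filtering and Benjamini-Hochberg adjustment, and a gene was called where its adjusted p was under 0.05. edgeR 4.0.16 (quasi-likelihood, TMM) was run beside it. Other settings were limma voom (3.58.1), no filters, DESeq2 on TMM scaling, at least 10 raw reads on average, the replicate number as a block, each library left out and, chosen after seeing the data, a melanocyte score as covariate. Ratios used a pseudocount of 0.5 (alternatively 0.1 or 5), and ratios and shares were compared by two-sided exact permutation over 70 divisions. Exon lengths and sites came from GENCODE M21 (GRCm38), which held 99.82% of the identifiers. The code was tested on simulated data.

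Members and lists were chosen with earlier results of these data known. Named genes are the members, per list the called genes (at most the 4 with the largest change) and up to 4 abundant uncalled ones, and the 5 genes most correlated with Adam12. Precision is set by the spread between 4 libraries, and GFP- replicate 3, with 883144 reads, had 15 to 218 reads per member. Replicates of a group differed by more than sampling noise (chi-square per degree of freedom 10.2 to 81.3).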

Additional observations from a re-analysis of the deposited data

Results flagged for a closer look

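Of 40 sets of 4 values examined (in each group, the normalized counts of the 10 members, the 9 ratios to Adam12 and the Adam12 share of member reads), 1 held a library far from the rest. Adam19 had a normalized count of 1186 in GFP+ replicate 2, against 1367, 1383 and 1395 in the other GFP+ libraries, a gap of 0.87 of the whole range, past Dixon's critical value for 4 samples. Chance alone passes this limit in about 1 of 20 sets. The value still lay above every GFP- library, the highest of which had 1051. Without GFP+ replicate 2 the log2 fold change of Adam19 was 0.67 with a DESeq2 adjusted p of 0.0611.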

How the results depend on the processing

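Adam23 was called with the same direction under every setting except the melanocyte covariate (log2 fold change 0.47). The count of 3 called members became 1 (Adam23) with edgeR and with edgeR and the replicate block, 0 with the melanocyte covariate, and ran from 1 to 3 over fits without 1 library. The Adam12 log2 fold change was 0.76 with edgeR (adjusted p 0.0643), 0.78 with edgeR and the replicate block (0.124), 1.30 with the melanocyte covariate (0.9998), and 0.60 to 0.87 over fits without 1 library, and passed with limma voom, TMM factors and the count minimum. The melanocyte covariate reversed Adam10 (0.44), Adam15 (-0.49) and Adam22 (0.24) and left 115 of 29043 genes called, and it and the group vary together. Over all genes 1439 were called by DESeq2, 732 by edgeR and 596 by edgeR with the replicate block. Adam19 was lost without independent filtering (adjusted p 0.0779).

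The Adam12 share of member reads differed by 1.51 to 3.77 percentage points over fits without 1 library, by 2.94 per kilobase and by 2.74 as reported, and no ratio passed the adjusted threshold under any setting. Deviations from the group means correlated weakly between same-numbered libraries (r = 0.05, -0.16, -0.12 and 0.26 for replicates 1 to 4). The GFP+ and GFP- libraries of replicate 4 correlated best with each other, and those of the other numbers did not. These correlations cannot show whether libraries of one number share a mouse. The numbers were not taken as pairs in the main fit. With the replicate block DESeq2 called 1492 genes, and Adam10 in addition to the 3 members (-0.51, adjusted p 0.0482). Within the block, 4 pairs allow no sign-flip p under 0.125. GFP- replicate 3 was the shallowest library, and without it the Adam12 adjusted p was 0.0689. The cause of these changes was not tested.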
